A study of Mus musculus with 8 samples.

Results

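Bmp4 and Inhbb were described here together with 8 further genes of bone morphogenetic protein (BMP) signalling, the ligands Bmp2 and Bmp6, the receptor Bmpr2, the inhibitory SMADs Smad6 and Smad7, and the target genes Id1, Id2 and Id3. These 10 genes were taken by symbol from the 30406 genes that both gene lists of the series hold. Bmp4 and Inhbb were chosen by their measured difference between diets in arterial-like cells, so those differences, their difference between the tissues, and the tissue difference of Inhbb on chow that shares the same libraries, are given as a description and were not tested. The data are single-cell RNA counts of endothelial cells of the mouse mesentery and epididymal adipose tissue. The animals of all groups were males carrying ROSA26-eYFP+/+ and Cdh5-CreERT2+, so that cells using the endothelial Cdh5 promoter make YFP after tamoxifen. Tamoxifen food was given for 2 weeks, starting at 6 weeks of age. At 8 weeks one arm went on to eat chow with 5.8% fat and the other a high fat diet with 60% fat, and tissues were taken after 12 to 13 weeks. The 4 groups were mesentery on chow, mesentery on high fat diet, adipose on chow and adipose on high fat diet. Each library held sorted cells of a pool of 6 mice, dissociated with actinomycin D, and the experiment was done in 2 runs, A and B, which gave n = 2 libraries per group. The control groups carried the reporter and received tamoxifen as well.

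BMP ligands bind a complex of type I and type II receptors, of which BMPR2 is the main type II receptor of endothelial cells. The complex phosphorylates SMAD1, SMAD5 and SMAD9, which enter the nucleus with SMAD4 and switch on the Id genes and the genes for SMAD6 and SMAD7, which damp the signal. Inhbb encodes the beta B subunit of inhibins and activins, proteins of the same superfamily, of which the activins signal mainly through SMAD2 and SMAD3.

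In the mouse build GRCm38, Bmp4 (ENSMUSG00000021835) lies on chromosome 14 at 46383520 to 46390669 and Inhbb (ENSMUSG00000037035) on chromosome 1 at 119415465 to 119422248, both on the minus strand. Bmp2 (ENSMUSG00000027358) lies on chromosome 2 at 133552159 to 133562885 and Bmp6 (ENSMUSG00000039004) on chromosome 13 at 38345107 to 38500302, both on the plus strand. Bmpr2 (ENSMUSG00000067336) lies on chromosome 1 at 59763400 to 59879014, plus strand, and Smad6 (ENSMUSG00000036867) on chromosome 9 at 63953076 to 64022059, minus strand. Id1 (ENSMUSG00000042745) lies on chromosome 2 at 152736251 to 152737410, plus strand, Id2 (ENSMUSG00000020644) on chromosome 12 at 25093799 to 25097140, minus strand, and Id3 (ENSMUSG00000007872) on chromosome 4 at 136143497 to 136145755, plus strand. The identifier of Smad7 is ENSMUSG00000025880.

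The RefSeq promoter table (GRCm38.p6) held 7 of the 10 genes, all except Bmp2, Smad7 and Id1. Shown are the 250 bases before the transcription start of Bmp4 and Inhbb, whose levels differed in opposite directions between diets in arterial-like cells, and of Bmpr2, Smad6 and Id2, which were higher together in mesentery than in adipose arterial-like cells on chow. Sequences run 5′ to 3′ on the gene's strand. Capitals mark matches on either strand to GGCGCC or GGAGCC, GC-rich words known from SMAD1 and SMAD5 binding, and to CAGAC, a SMAD-binding word.
Bmp4, chr14:46390670-46390919, minus strand: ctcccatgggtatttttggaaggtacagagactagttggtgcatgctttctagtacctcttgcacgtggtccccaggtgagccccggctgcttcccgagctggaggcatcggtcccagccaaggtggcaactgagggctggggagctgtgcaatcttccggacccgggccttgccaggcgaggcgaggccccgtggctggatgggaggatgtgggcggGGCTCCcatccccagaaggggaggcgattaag
Inhbb, chr1:119422249-119422498, minus strand: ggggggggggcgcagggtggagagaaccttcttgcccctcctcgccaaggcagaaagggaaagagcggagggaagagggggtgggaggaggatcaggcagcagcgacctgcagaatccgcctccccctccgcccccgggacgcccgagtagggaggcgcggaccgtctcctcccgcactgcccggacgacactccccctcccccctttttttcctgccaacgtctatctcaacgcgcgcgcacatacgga
Bmpr2, chr1:59764029-59764278, plus strand: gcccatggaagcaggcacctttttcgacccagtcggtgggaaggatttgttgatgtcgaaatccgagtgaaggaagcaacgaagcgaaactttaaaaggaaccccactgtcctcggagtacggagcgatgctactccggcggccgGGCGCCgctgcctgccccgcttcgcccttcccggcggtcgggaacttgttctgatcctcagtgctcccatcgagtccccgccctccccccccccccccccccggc
Smad6, chr9:64022060-64022309, minus strand: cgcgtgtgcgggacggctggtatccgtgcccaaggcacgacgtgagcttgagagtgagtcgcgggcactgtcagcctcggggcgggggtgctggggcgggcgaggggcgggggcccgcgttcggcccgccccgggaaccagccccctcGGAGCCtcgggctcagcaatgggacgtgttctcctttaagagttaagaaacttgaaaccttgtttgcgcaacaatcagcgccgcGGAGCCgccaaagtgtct
Id2, chr12:25096093-25096342, minus strand: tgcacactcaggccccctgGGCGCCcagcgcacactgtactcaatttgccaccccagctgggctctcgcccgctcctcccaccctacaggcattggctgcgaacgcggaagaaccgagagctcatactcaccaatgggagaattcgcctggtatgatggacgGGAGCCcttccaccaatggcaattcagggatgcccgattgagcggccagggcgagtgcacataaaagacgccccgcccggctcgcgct
GGCGCC was present in the windows of Bmpr2 and Id2, once each, and in 9.6% of the 32851 windows of the same length in the table. GGAGCC was present once in Bmp4, once in Id2 and 2 times in Smad6, and in 26.0% of all windows. CAGAC was present in none of the 5 windows shown and in 42.2% of all. The Inhbb window held no match to any of these words. The matches in these windows do not overlap each other, and a match describes the letters only.

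After filters, 23138 cells were used, of which 15677 were endothelial by their markers, 678 to 3659 per library. Libraries of run A held 3461360 to 6714473 UMIs (molecule counts) and those of run B 18829960 to 36779289, so that values of run A rest on fewer molecules. Any 2 libraries shared 0 to 10 cell barcodes, at most 0.31% of the smaller one. Endothelial cells were grouped, without the pathway's genes, into arterial-like (clusters 2 and 7), capillary-like (1 and 3), venous-like (6, 9, 15 and 25) and lymphatic-like (5 and 13) classes. The 10 arterial markers summed to 2912 to 6630 CPM in arterial-like and 438 to 1371 CPM in venous-like cells. CPM scales a gene's count to the total count of the same class and library, and is compared here for 1 gene at a time, never between genes. The capillary-like class of mesentery rests on 31 and 29 cells in run A.

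Bmp4, a ligand of vascular and mesenchymal development, was highest in venous-like cells, where the lowest, median and highest of the 8 libraries were 78.9, 237 and 619 CPM. It was at 25.4, 58.3 and 131 CPM in arterial-like, 5.47, 33.0 and 125 CPM in lymphatic-like and 12.6, 17.3 and 25.8 CPM in capillary-like cells. The venous-like and arterial-like ranges overlap, as do those of the arterial-like and lymphatic-like cells, while every venous-like library was above every capillary-like one. In lymphatic-like cells the runs stood apart, with 5.47 to 11.4 CPM in run A and 54.7 to 125 CPM in run B. Since no gene of the pathway was used to form clusters or classes, these levels describe the cells, but the clusters share libraries and no test was made between them.

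**Figure D1:**
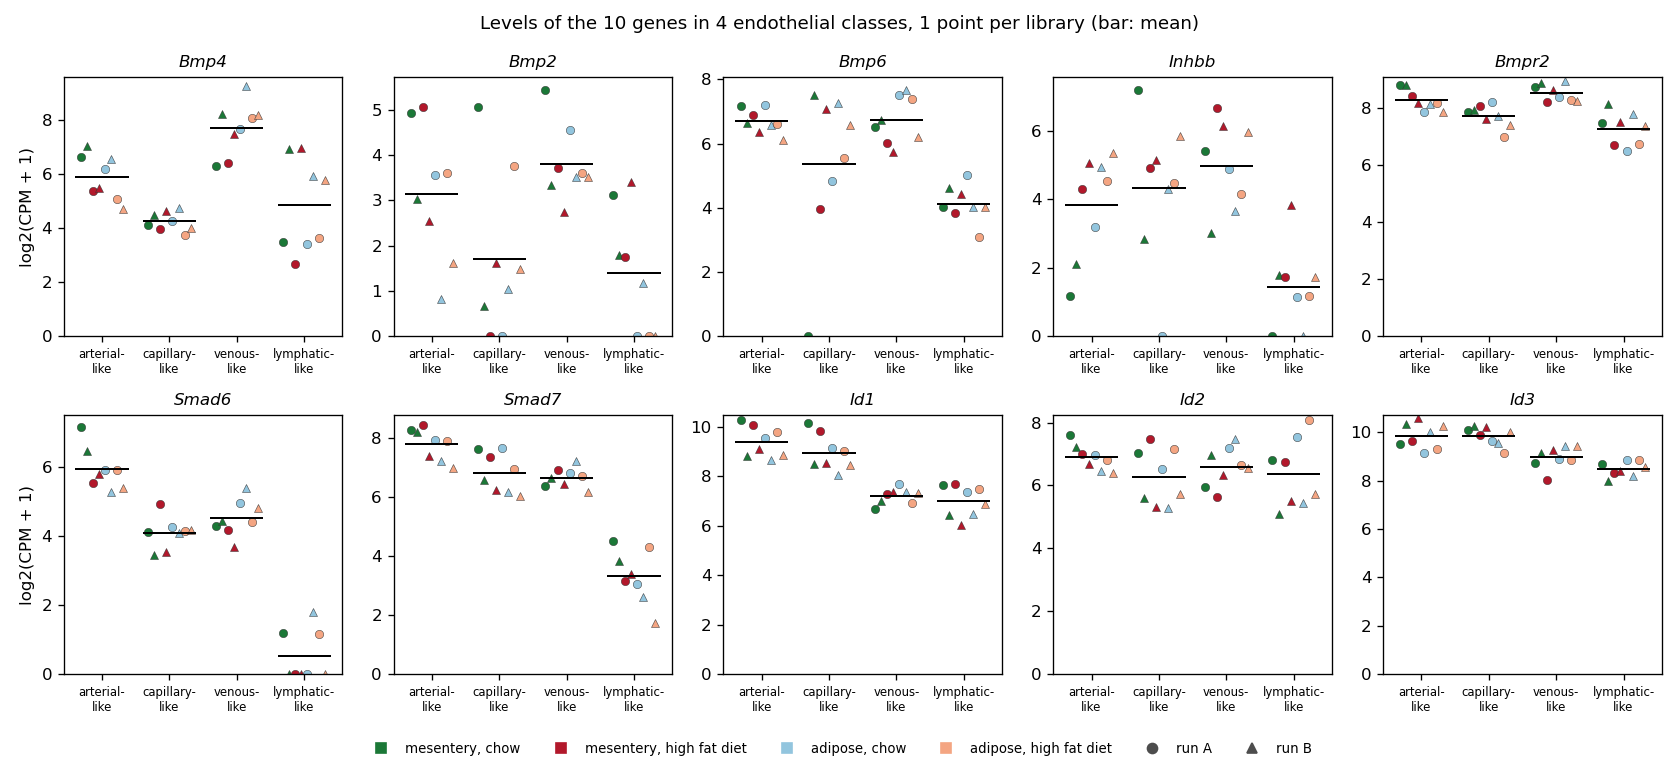
Level of each of the 10 genes, as log2(CPM + 1), in 4 endothelial classes; each point is 1 library (circles run A, triangles run B), colours are the 4 groups and the bar is the mean of the plotted log values. Bmp4 is highest in venous-like cells, Smad6 in arterial-like cells, and Smad6 is near 0 in lymphatic-like cells.

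Within the arterial-like, venous-like and lymphatic-like classes Bmp4 was concentrated in some clusters. The capillary-like clusters overlapped, with 0 to 30.6 CPM in cluster 1 and 14.7 to 38.0 CPM in cluster 3. Of the arterial-like clusters, cluster 7 (leading genes Gkn3, Igf2 and Gja5) had 60.9 to 258 CPM of Bmp4 and cluster 2 (leading genes Col8a1, Alox12 and Sema3g) 0 to 22.3 CPM, higher in cluster 7 in 8 of 8 libraries and with no overlap. Among venous-like clusters, Bmp4 was at 256 to 1195 CPM in cluster 15, which was found almost only in adipose (60 to 187 cells per adipose library, 0 to 4 per mesentery library). Cluster 9, mostly of mesentery, had 99.9 to 1260 CPM of Bmp4, with a median of 394 CPM, and cluster 6 had 53.7 to 151 CPM. The values of cluster 9 include adipose chow B and adipose high fat diet B, with 24 cells each. The whole venous-like class reached 302 CPM at most in mesentery. Cluster 9 was above cluster 6 in 6 of 6 libraries, cluster 15 above it in 4 of 4, and in the lymphatic-like class cluster 13 (12.5 to 296 CPM) was above cluster 5 (1.72 to 38.4 CPM) in 8 of 8.

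Counted by cell, 65.6% of 518 cells of cluster 15 had a Bmp4 UMI (exact 95% binomial interval 61.4 to 69.7, counting error only), at a median depth of 3154 UMIs per cell. The share was 28.8% (26.4 to 31.4) of 1307 cells of cluster 7 and 5.16% (4.29 to 6.15) of 2287 cells of cluster 2, at median depths of 3689 and 3379 UMIs. In macrophage-like cells, which should lack Bmp4, it was 0.55% (0.15 to 1.41) at 12575 UMIs per cell. With cells thinned to 1000 UMIs, leaving out 28, 82, 163 and 3 shallower cells, the shares with a Bmp4 UMI were 36.7%, 11.9%, 1.37% and 0.14% in cluster 15, cluster 7, cluster 2 and the macrophage-like cells. Cells of 1 library are not replicates, so these shares carry no test. Outside the endothelium, cluster 17, an adipose population without a class name whose leading genes include Slc38a5, Lamc3 and Acta2, held 102 to 233 CPM of Bmp4 in its 4 libraries.

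Bmp2, a ligand close to BMP4 in sequence, had its highest level in 1 endothelial cluster of the mesentery. Cluster 14, which has no class name and is led by Marco, Bmp2 and Il4i1, held 1166, 792 and 1049 CPM of Bmp2 in mesentery chow A, mesentery chow B and mesentery high fat diet A. The cluster had 110, 454 and 31 cells in these libraries, 4 in mesentery high fat diet B and 0 in each adipose library. In every other cluster the mean level of Bmp2 over libraries was 30.0 CPM or lower, and in the 4 named classes single libraries ranged from 0 to 42.6 CPM. A Bmp2 UMI was present in 71.5% of 599 cells of cluster 14 (67.65 to 75.0) at a median depth of 5592 UMIs, against 10.7% of 721 macrophage-like cells (8.52 to 13.2) and 0 of 377 B cell-like cells, which allows up to 0.796%. Thinned to 1000 UMIs, the shares were 48.1% in cluster 14 and 1.11% in macrophage-like cells. Cluster 14 held little of the target gene Id1, 5.83 to 14.3 CPM, and 5.63 to 9.54 CPM of Bmp4.

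**Figure D2:**
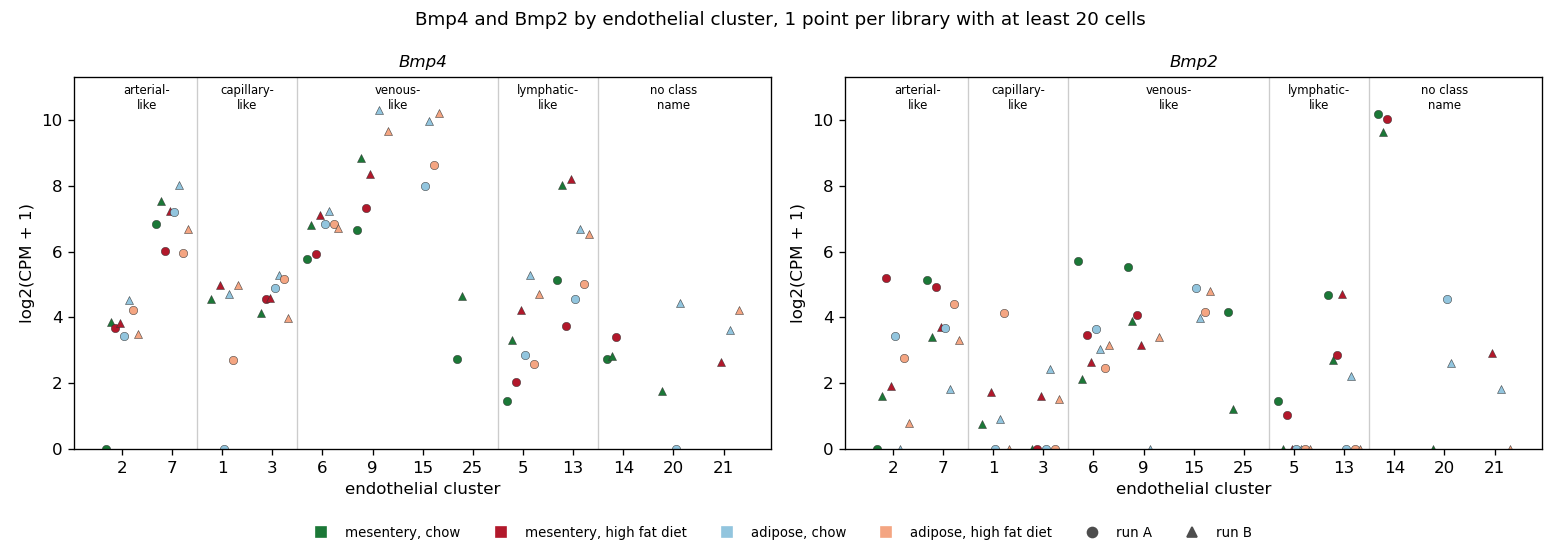
Bmp4 (left) and Bmp2 (right) as log2(CPM + 1) in 13 endothelial clusters, 1 point per library with at least 20 cells of the cluster, grouped by class. Bmp4 is split within the arterial-like, venous-like and lymphatic-like classes; Bmp2 is high in cluster 14, which only mesentery libraries fill.

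Bmp6, the ligand best known for the control of hepcidin and iron, was at similar levels in venous-like cells (lowest, median and highest library 52.9, 97.7 and 205 CPM) and arterial-like cells (68.8, 97.2 and 145 CPM). In capillary-like cells it was at 0 to 46.3 CPM in the libraries of run A and 94.5 to 182 CPM in those of run B. Lymphatic-like cells were lowest, at 7.58 to 31.8 CPM. Cluster 15 had the highest mean of Bmp6, 309 ± 47.0 CPM (SD, n = 4), followed by cluster 7 with 177 ± 40.1 CPM (n = 8). Cluster 7 was above cluster 2 in 8 of 8 libraries for Bmp6, as for Bmp4, with 126 to 266 against 35.6 to 58.4 CPM.

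Inhbb was at 7.14, 35.1 and 99.7 CPM (lowest, median and highest library) in venous-like cells, at 0, 25.3 and 147 CPM in capillary-like and at 1.28, 20.6 and 40.2 CPM in arterial-like cells. These ranges overlap, and no order among the 3 classes stands out from the spread. Lymphatic-like cells had 0 to 13.2 CPM of Inhbb, and 0 of 430 T cell-like cells had an Inhbb UMI, which allows up to 0.698%. Cluster 17 of adipose held 68.3 to 199 CPM of Inhbb.

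Bmpr2, the type II receptor, had its highest median in venous-like cells. Venous-like libraries had 292, 360 and 494 CPM (lowest, median, highest), arterial-like 229, 289 and 448 CPM, capillary-like 126, 218 and 293 CPM and lymphatic-like 89.3, 170 and 284 CPM, so that neighbouring classes in this order overlap, while the venous-like range lies above the lymphatic-like one.

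Smad6 and Smad7, the inhibitory SMADs, were highest in arterial-like cells. Smad6 was at 37.9, 57.3 and 143 CPM in arterial-like libraries, 11.9, 20.7 and 41.1 CPM in venous-like, 9.90, 16.6 and 29.5 CPM in capillary-like and 0 to 2.52 CPM in lymphatic-like ones. The arterial-like range lies above the capillary-like range and overlaps the venous-like one, and Smad6 was at 0 counts in 5 of 8 lymphatic-like libraries. Smad7 was at 124, 240 and 348 CPM in arterial-like, 65.1, 108 and 202 CPM in capillary-like, 71.2, 101 and 148 CPM in venous-like and 2.33, 8.71 and 21.6 CPM in lymphatic-like cells. The runs stood apart for Smad7 in capillary-like cells, with 122 to 202 CPM in run A and 65.1 to 94.7 CPM in run B. Within the arterial-like class, Smad6 was higher in cluster 7 than in cluster 2 in 8 of 8 libraries, by 1.08 ± 0.43 (SD) on the log2(CPM + 1) scale.

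Id1, Id2 and Id3 encode inhibitors of basic helix-loop-helix transcription factors. Id1 was at 405, 647 and 1227 CPM in arterial-like and 261, 439 and 1125 CPM in capillary-like libraries, which overlap. Venous-like cells had 102 to 202 CPM and lymphatic-like cells 64.9 to 205 CPM of Id1, below every arterial-like and capillary-like library. Run A lay above run B for Id1 in arterial-like cells, with 743 to 1227 CPM in run A and 405 to 552 CPM in run B. The same held in fibroblast-like cells, with 225 to 719 CPM of Id1 in run A and 15.3 to 28.0 CPM in run B. It held in capillary-like cells too, with 513 to 1125 CPM in run A and 261 to 366 CPM in run B. Id3 was at 571, 923 and 1541 CPM in arterial-like and 564, 996 and 1215 CPM in capillary-like cells, and at 256 to 689 CPM in venous-like and lymphatic-like cells. In arterial-like cells the runs of Id3 stood the other way round, with 571 to 806 CPM in run A and 1039 to 1541 CPM in run B. For Id2 all 4 classes overlapped, with medians of 118 CPM in arterial-like, 97.1 in venous-like, 79.3 in lymphatic-like and 71.8 CPM in capillary-like cells. The last 2 medians fall between the runs. Capillary-like cells had 91.7 to 177 CPM in run A and 38.3 to 52.0 CPM in run B. Lymphatic-like cells had 106 to 272 CPM in run A and 32.8 to 52.4 CPM in run B.

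The diets were compared first in arterial-like cells, where Bmp4 was lower and Inhbb higher on high fat diet. Bmp4 in mesentery was at 98.9 and 131 CPM on chow (runs A and B) and at 40.4 and 43.9 CPM on high fat diet, means of 115 ± 22.9 and 42.2 ± 2.48 CPM (SD, n = 2). In adipose it was at 72.7 and 94.8 CPM on chow and at 33.4 and 25.4 CPM on high fat diet, means of 83.7 ± 15.6 and 29.4 ± 5.64 CPM. The diets do not overlap in either tissue. The fitted log2 fold changes of Bmp4 were -1.51 ± 0.30 (SE) in mesentery and -1.56 ± 0.32 in adipose, and -1.54 ± 0.24 and -1.69 ± 0.27 with the run as a block.

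The share of cluster 7 in the arterial-like class moved with the diet as well. It was 75.1% and 63.0% of the arterial-like cells in mesentery on chow (runs A and B), 44.7% and 20.4% in mesentery on high fat diet, 38.6% and 31.6% in adipose on chow and 31.3% and 19.1% in adipose on high fat diet. Within cluster 2 of mesentery, Bmp4 was at 0 and 13.4 CPM on chow and 11.9 and 13.3 CPM on high fat diet, with a log2 difference of 0.17 ± 0.66 with the block. Within cluster 7 of mesentery it was at 115 and 186 CPM on chow and 64.2 and 149 CPM on high fat diet, a log2 difference of -0.55 ± 0.25. Within cluster 7 of adipose, Bmp4 was at 148 and 258 CPM on chow and 60.9 and 101 CPM on high fat diet, a log2 difference of -1.32 ± 0.29, and within cluster 2 of adipose the difference was -0.79 ± 0.56. The markers of capillary cells were higher on high fat diet in both runs: the 8 capillary markers summed to 240 and 1707 CPM in arterial-like cells of mesentery on chow and 701 and 4922 CPM on high fat diet. The 7 adipocyte markers summed there to 2.6 and 414 CPM on chow and 0 and 107 CPM on high fat diet, and the 5 erythroid markers to 0 and 48.9 CPM and 21.6 and 207 CPM, with up to 7 and 5 of these genes at 0 in a library. The part of the class's make-up in the difference of Bmp4 was not tested beyond these values. With cells of up to 20% mitochondrial counts, or with finer clusters, both of which left fewer mesentery chow cells in the class, the log2 difference of Bmp4 with the block was -0.77 and -0.83 in mesentery.

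Inhbb in arterial-like cells of mesentery was at 1.28 and 3.28 CPM on chow (1 and 10 counts in runs A and B) and at 18.9 and 32.1 CPM on high fat diet, from counts of 7 and 106. The ratio of high fat diet to chow was 14.7 in run A, with an exact interval from counting of 1.89 to 662, and 9.79 in run B (5.12 to 21.01). In adipose Inhbb was at 8.08 and 29.6 CPM on chow and 22.2 and 40.2 CPM on high fat diet, ratios of 2.75 (0.59 to 17.0) in run A and 1.36 (1.05 to 1.75) in run B. The diets do not overlap in mesentery and overlap in adipose, and the mesentery chow libraries were the lowest of the 8. The fitted log2 fold changes of Inhbb with the block were 3.30 ± 0.44 in mesentery and 0.62 ± 0.32 in adipose. Both arterial-like clusters of mesentery read higher for Inhbb on high fat diet. Cluster 7 went from 1.49 and 1.44 CPM to 24.7 and 38.9 CPM, from counts of 1 and 3 to 5 and 29. Cluster 2 went from 0 and 7.20 CPM to 11.9 and 30.1 CPM, from counts of 0 and 7 to 2 and 77. In run A of cluster 2 these counts are too few to show a rise.

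**Figure D3:**
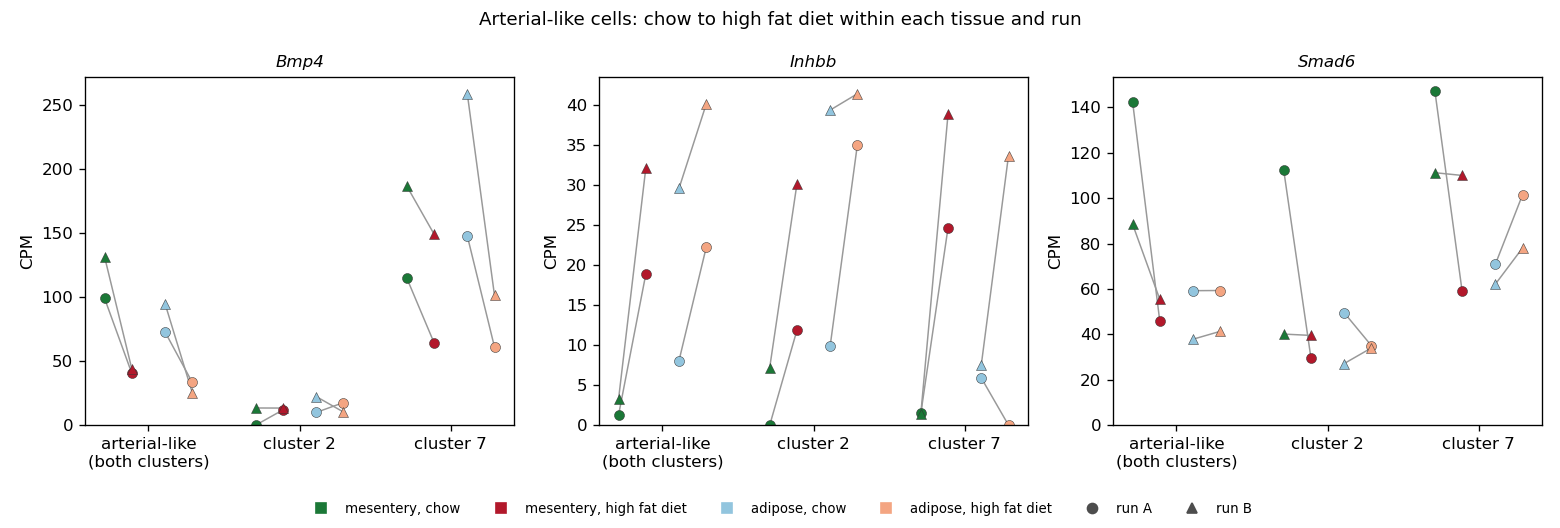
Bmp4, Inhbb and Smad6 in CPM on chow and high fat diet, for the arterial-like class and its clusters 2 and 7; each line joins the 2 diets within a tissue and run. Bmp4 is lower on high fat diet along all 4 lines of the class and of cluster 7 and is at 0 to 22.3 CPM in cluster 2, and Inhbb goes up along both mesentery lines of the class.

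The difference of the diet effect between tissues was fitted as an interaction with the run as a block. For Inhbb in arterial-like cells it was 2.68 ± 0.56 (log2, mesentery minus adipose) and for Bmp4 0.15 ± 0.36, both as a description. No gene of 10381 passed edgeR's test for the interaction (0% with and without the block), while 376 genes and 1 of the 8 other members were under an unadjusted p of 0.05 with the block, and neither DESeq2 nor limma-voom called any gene.

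Among the other members in arterial-like cells of mesentery, Smad6 fell on high fat diet once the run was taken into account. It was at 143 and 88.6 CPM on chow and at 45.8 and 55.5 CPM on high fat diet, means of 116 ± 38.1 and 50.6 ± 6.81 CPM, with no overlap. The log2 fold change was -1.04 ± 0.25, adjusted p = 0.0288 (edgeR's quasi-likelihood test, Benjamini-Hochberg, run as a block). In adipose Smad6 was at 59.2 and 37.9 CPM on chow and 59.3 and 41.3 CPM on high fat diet. The call of Smad6 was lost without mesentery chow A (adjusted p = 0.0627), mesentery chow B (0.0632), mesentery high fat diet A (0.321), mesentery high fat diet B (0.157) or adipose chow B (0.0557), and with DESeq2 or limma-voom. It was also lost with the 20% mitochondrial limit, at a log2 difference of -0.43 ± 0.28 (adjusted p = 0.999), and with the finer clusters, at -0.63 ± 0.30 (adjusted p = 0.832). Both settings left a cluster with arterial markers out of the class, which therefore did not hold the same cells. Within cluster 2 the log2 difference of Smad6 was -0.44 and within cluster 7 it was -0.50, and neither passed the test.

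With the run as a block, 307 of 10381 genes passed for the diet in arterial-like cells of mesentery, which is 2.96% of the genes tested, and 27 passed in adipose, which is 0.260%. Of the 8 members not chosen on these contrasts, Smad6 passed in mesentery and none in adipose. The remaining 7 in mesentery had log2 fold changes from -0.63 (Id2) to 0.13 (Id3), and the 8 in adipose from -0.46 (Bmp6) to 0.77 (Bmp2). Over all 10 members, 2 were higher and 8 lower in mesentery, with a median of -0.40. In adipose 6 were higher and 4 lower, with a median of 0.07. These tallies and medians include Bmp4 and Inhbb, which were chosen on these contrasts. They are therefore a description and are not set against all genes. Without the block no gene passed in any of the 21 comparisons (0% of the genes tested). In arterial-like cells 214 genes and 1 of the 8 members not chosen on these contrasts were then under an unadjusted p of 0.05 for the diet in mesentery, and 55 genes and 0 of the 8 in adipose, and DESeq2 and limma-voom called none of the 8.

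The tissues were next compared on chow, a comparison that shares the mesentery chow libraries with the diet comparison above. In arterial-like cells Smad6, Bmpr2, Id2 and Bmp2 were higher in mesentery than in adipose with the run as a block. Smad6 was at 143 and 88.6 CPM in mesentery and 59.2 and 37.9 CPM in adipose, a log2 fold change of 1.35 ± 0.26 (edgeR's quasi-likelihood test, adjusted p = 0.00523). It passed without each library in turn except adipose chow B (adjusted p = 0.52), and in cluster 7 alone, where the log2 difference was 1.03 ± 0.29 (adjusted p = 0.0444). Within cluster 2 the difference was 0.78 ± 0.38 (adjusted p = 0.968). The call was lost with the 20% mitochondrial limit, at 0.84 ± 0.28 (adjusted p = 0.317), and with the finer clusters, at 0.86 ± 0.30 (adjusted p = 0.401). Both settings left a cluster with arterial markers without a class name, so the class did not hold the same cells. Bmpr2 was at 442 and 448 CPM in mesentery and 229 and 279 CPM in adipose, a log2 fold change of 0.85 ± 0.21 (adjusted p = 0.0286 by edgeR). Neither gene's groups overlap.

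Id2 was at 195 and 149 CPM in mesentery and 124 and 86.8 CPM in adipose on chow, a log2 fold change of 0.80 ± 0.21 (edgeR's quasi-likelihood test with the block, adjusted p = 0.0469). Leaving out any library but adipose high fat diet A ended this call, with a highest adjusted p of 0.678, and so did DESeq2, limma-voom and kept doublets. Bmp2 was at 29.5 and 7.22 CPM (23 and 22 counts) in mesentery and 10.8 and 0.77 CPM (4 and 3 counts) in adipose, a log2 fold change of 2.38 ± 0.61 (edgeR, adjusted p = 0.0404). Its groups overlap across runs and its call was lost without mesentery chow B (adjusted p = 0.407), mesentery high fat diet B (0.0912), adipose chow A (0.0558), adipose chow B (0.732) or adipose high fat diet B (0.0803), and with DESeq2 or limma-voom. For Bmpr2 the call was lost without mesentery chow B (0.177), mesentery high fat diet B (0.062), adipose chow A (0.259) or adipose chow B (0.238). The 20% mitochondrial limit and the finer clusters, with the changed class described above, each ended the calls of Bmpr2, Id2 and Bmp2 as well. The log2 fold changes were still above 0. Inhbb was lower in mesentery, with a log2 difference of -3.02 ± 0.44, which is a description for the reason given above.

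For the tissue on chow, 302 of 10381 genes passed with the block (2.91%), so that 4 of the 9 members tested are set against that share. The 9 include Bmp4, which did not pass and was chosen on diet comparisons that share these libraries. Of the 10 members 9 were higher in mesentery, with a median log2 difference of 0.65. Inhbb, the 1 that was lower, was not tested here, so this tally and median are a description. On high fat diet no member passed, with 11 genes called in all (0.106%). Under an unadjusted p of 0.05 were 2 of the 10 members and 2.95% of all genes. The 10 include Bmp4 and Inhbb, which were chosen on diet comparisons that share these libraries. The members then ranged from -0.34 (Inhbb) to 1.32 (Bmp2), with a median of 0.25. DESeq2 and limma-voom, also with the block, called no member on high fat diet. The 9 venous markers summed to 1591 and 718 CPM in arterial-like cells of mesentery on chow and 487 and 218 CPM in those of adipose on chow, and cluster 7 made up 75.1% and 63.0% against 38.6% and 31.6% of the cells. Other marker sums were lower in mesentery in both runs: the 8 capillary markers summed to 240 and 1707 against 587 and 4769 CPM, the 10 mural markers to 109 and 161 against 294 and 421 CPM, the 7 adipocyte markers to 2.6 and 414 against 18.8 and 1341 CPM, and the 5 erythroid markers to 0 and 48.9 against 21.5 and 743 CPM. Cluster 7 read above cluster 2 in 7 of 8 libraries for Bmp2 and for Bmpr2, and in 6 of 8 for Id2. Within cluster 2, means in mesentery and adipose on chow were 331 and 217 CPM for Bmpr2 and 151 and 72.8 CPM for Id2. For Bmp2 they were 1.03 and 4.96 CPM, from 2 counts each. Within cluster 7 the means were 484 and 317 CPM for Bmpr2, 184 and 160 CPM for Id2, and 21.9 and 7.16 CPM for Bmp2. The part of the marker sums or of the cluster make-up in the differences was not tested beyond the values within clusters.

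**Figure D4:**
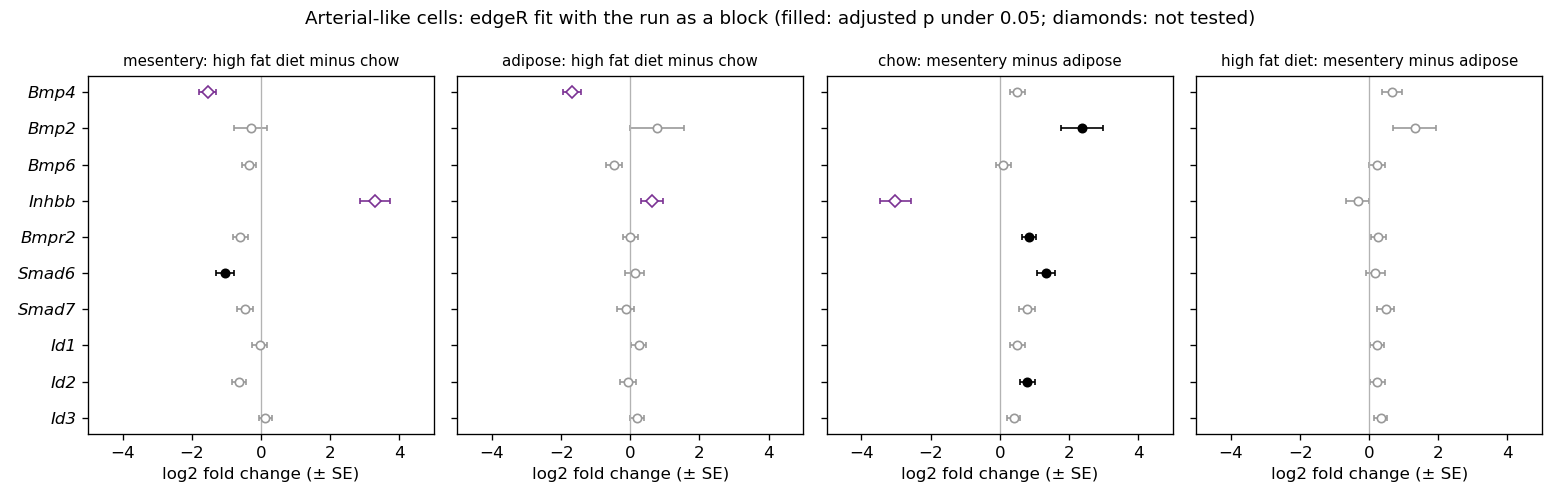
Log2 fold change with its standard error for the 10 genes in arterial-like cells, with the run as a block, for the diet in each tissue and the tissue on each diet; filled circles have an adjusted p under 0.05 and diamonds were not tested. Smad6 is the gene with a filled circle for the diet, in mesentery, and Smad6, Bmpr2, Id2 and Bmp2 have one for the tissue on chow.

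The diet was then compared for Inhbb in the other classes. These cells came from the same pools as the arterial-like cells on which Inhbb was chosen, so the tests are not independent of that choice. In capillary-like cells of adipose Inhbb rose on high fat diet with the run as a block. It was at 0 and 18.7 CPM on chow (0 and 267 counts) and at 21.04 and 57.2 CPM on high fat diet, from counts of 5 and 318, higher in both runs although the groups overlap across runs. The log2 fold change was 1.54 ± 0.39 (edgeR's quasi-likelihood test, adjusted p = 0.00931), and in run B the ratio was 3.06 (counting interval 2.59 to 3.62). In run A the interval of the ratio starts at 0.42, so its counts of 0 and 5 are too few to show a rise. In adipose of run B most capillary-like cells belonged to cluster 1 on chow (2023 of 2153) and to cluster 3 on high fat diet (962 of 1004). Inhbb read higher on high fat diet within each of them and in both runs, from 0 to 22.2 and from 19.3 to 35.7 CPM in cluster 1, and from 0 to 17.5 and from 5.85 to 58.0 CPM in cluster 3. On high fat diet cluster 1 rests on 4 and 7 counts and cluster 3 of run A on 1 count. The counts of run A are too few to show a rise in either cluster. The 7 adipocyte markers summed to 312 and 4239 CPM in these cells on chow and to 101 and 85.5 CPM on high fat diet, and their part in the result was not tested. The call was lost without mesentery chow B (adjusted p = 0.0624), mesentery high fat diet B (0.525), adipose chow B (0.879, log2 fold change 10.09, a fit against a library at 0 counts) or adipose high fat diet B, where the log2 fold change was -0.73 ± 1.35. It was also lost with DESeq2, limma-voom, the 20% mitochondrial limit or the finer clusters, where the log2 fold change stayed above 0. The 20% limit and the finer clusters each left a cluster with capillary markers without a class name, so the class did not hold the same cells.

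In capillary-like cells of mesentery Inhbb was at 147 and 6.12 CPM on chow and 29.5 and 34.4 CPM on high fat diet, lower on high fat diet in run A (9 and 2 counts) and higher in run B (21 and 167 counts). The log2 difference with the block was 1.5 ± 0.52 (edgeR, adjusted p = 0.231). In venous-like cells of mesentery it was at 41.6 and 7.14 CPM on chow and 99.7 and 68.9 CPM on high fat diet, higher in both runs by ratios of 2.40 (1.64 to 3.45) and 9.65 (6.42 to 14.96), with a log2 difference of 2.05 ± 0.58 that did not pass the test (edgeR, adjusted p = 0.287). In cluster 6 alone, a setting chosen after seeing the data, the venous-like difference of Inhbb in mesentery was 2.11 ± 0.43 (edgeR with the block, adjusted p = 0.0492). The share of all genes called in cluster 6 is not given, so this value is a description. In venous-like cells of adipose the runs went different ways, from 28.5 to 16.8 CPM in run A and from 11.6 to 61.6 CPM in run B. Lymphatic-like cells held 0 to 11 counts of Inhbb per library and were not tested.

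**Figure D5:**
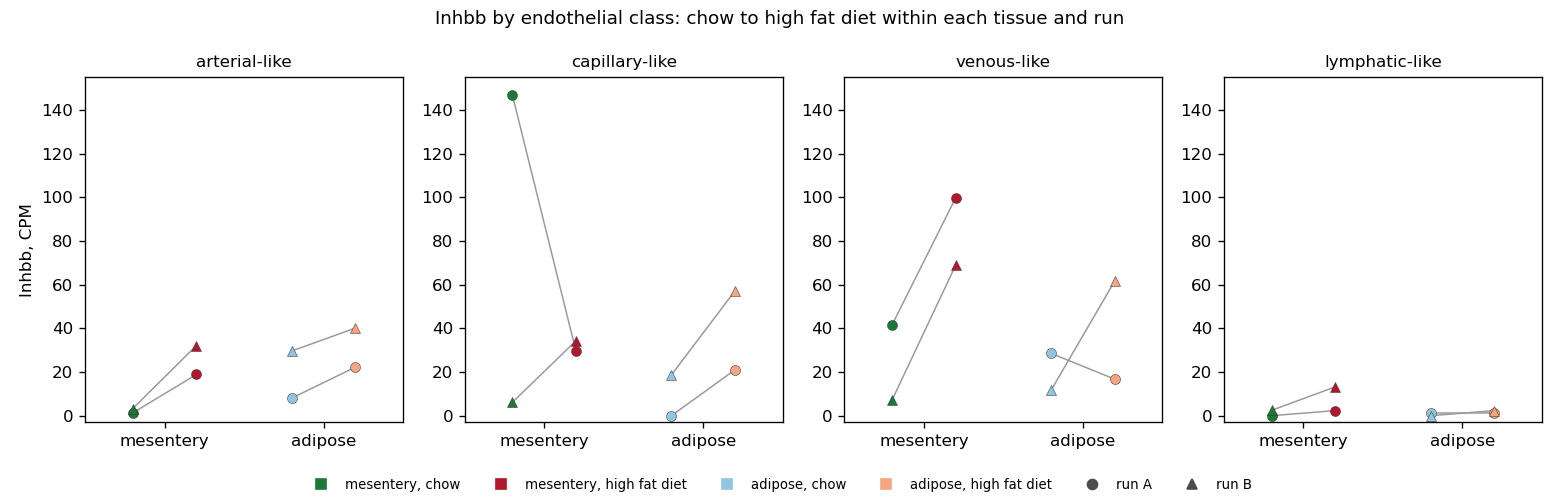
Inhbb in CPM on chow and high fat diet in 4 endothelial classes, 1 line per tissue and run. Every run B line goes up, while the run A lines of mesentery capillary-like and adipose venous-like cells go down.

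Called genes were fewer in most of the other comparisons, and no other member passed. In capillary-like cells, of 10241 genes, 1.05% passed with the block for the diet in mesentery, 1.31% for the diet in adipose, 0.303% for the tissue on chow and 0.205% for the tissue on high fat diet. In venous-like cells, of 10462 genes, the shares were 0.162%, 0.0669%, 1.87% and 0.287% in the same order. Bmp4 in venous-like cells was at 78.9 and 302 CPM in mesentery and 204 and 619 CPM in adipose on chow, lower in mesentery in both runs, with a log2 difference of -1.17 ± 0.32 (edgeR with the block, adjusted p = 0.0925). On high fat diet it was at 85.2 and 182 CPM in mesentery and 270.0 and 293 CPM in adipose, and the log2 difference was -1.21 ± 0.35 (adjusted p = 0.323 by edgeR). Adipose holds almost all cells of cluster 15 and mesentery most of cluster 9, the 2 venous-like clusters with the highest mean of Bmp4. The mean of cluster 9 (521 CPM) includes adipose libraries of 24 cells each.

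In lymphatic-like cells 7 of the 10 members had enough counts for the test, all except Bmp2, Inhbb and Smad6, and none passed. Of 8699 genes, 1.76%, 0.0345%, 1.60% and 0.195% passed with the block in the same order of comparisons. The lowest adjusted p was that of Bmpr2 for the diet in mesentery (edgeR with the block, 0.0789), at 174 and 284 CPM on chow and 103 and 179 CPM on high fat diet. Over all endothelial cells, 0.0981%, 0.0302%, 0.460% and 0% of 13258 genes passed. Bmp2 over all endothelial cells was at 152 and 158 CPM in mesentery and 8.53 and 2.06 CPM in adipose on chow, and 95.7 and 4.83 CPM in mesentery on high fat diet. Its log2 difference between tissues on chow was 5.52 ± 0.99 (edgeR with the block, adjusted p = 0.0654), called by DESeq2 with and without the block, and it moves with the cells of cluster 14, which only mesentery libraries held. In these 3 classes and over all endothelial cells, 0 to 6 members per comparison were under an unadjusted p of 0.05 with the block. Of all genes, 2.22% to 12.13% were. The 6 were for the tissue on chow in venous-like cells, where 9.1% of all genes were under that p. Apart from that call of Bmp2, DESeq2 and limma-voom with the block called no member there.

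The other genes of the pathway were taken from lists of 61 genes beyond the members. In arterial-like cells 35 of them had enough counts. For the diet in mesentery, 0 were higher and 2 lower with the block, where 2.96% of all genes passed, and 0 passed in adipose, where 0.260% did. Mgp, which encodes a matrix protein that binds BMPs, was at 22742 and 11389 CPM on chow and 9735 and 1574 CPM on high fat diet (log2 fold change -2.21 ± 0.30, edgeR adjusted p = 0.000491). Hey2, a transcriptional repressor of arterial cells controlled by Notch and BMP signals, was at 65.5 and 66.6 CPM on chow and 18.9 and 14.2 CPM on high fat diet (-2.13 ± 0.30, edgeR adjusted p = 0.000519). Both are genes of cluster 7, with Mgp at 5047 to 26058 CPM there and 44.6 to 2447 CPM in cluster 2, and Hey2 at 30.4 to 97.8 against 0 to 11.7 CPM.

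For the tissue on chow in arterial-like cells, 3 of the 35 were higher in mesentery and 1 lower, where 2.91% of all genes passed. The 3 were Mgp (2.02 ± 0.30, edgeR adjusted p = 0.000648), Hey2 (1.81 ± 0.29, 0.00114) and Skil, an inhibitor of SMAD signals (1.27 ± 0.24, 0.00468). Within cluster 7, Skil was at 235 and 157 CPM in mesentery and 100 and 73.8 CPM in adipose. Within cluster 2 its runs went different ways, with 93.6 and 81.3 CPM in mesentery and 119 and 43.1 CPM in adipose. The gene that was lower, named after its value was seen, was Smad1, a SMAD that carries BMP signals, at 32.1 and 45.9 CPM in mesentery and 70.01 and 90.7 CPM in adipose (-0.96 ± 0.24, edgeR adjusted p = 0.0348). Within cluster 2, Smad1 was at 56.2 and 76.1 CPM in mesentery and 104 and 103 CPM in adipose. Within cluster 7 it was at 28.3 and 31.8 CPM and at 29.5 and 62.1 CPM. In capillary-like cells 1 of 29 passed, against 0.205% of all genes, Mgp for the tissue on high fat diet, lower in mesentery (-2.23 ± 0.34, edgeR adjusted p = 9.24e-07). Mgp was there at 29.5 and 9.88 CPM in mesentery, from 2 and 48 counts in runs A and B. In adipose it was at 627 and 27.5 CPM, from 149 and 153 counts, so the size of the difference depended on the run. In lymphatic-like cells 3 of 25 passed for the diet in mesentery, against 1.76% of all genes: Hey1 (-1.65 ± 0.35, edgeR adjusted p = 0.0196) and Nbl1, a BMP antagonist (-1.27 ± 0.29, 0.0311), fell, and Neo1, a receptor that binds BMP co-receptors, rose (2.97 ± 0.52, 0.00468). For the tissue on chow, where 1.60% of all genes passed, Neo1 was lower in mesentery lymphatic-like cells (-3.10 ± 0.53, edgeR adjusted p = 0.00361). Both calls of Neo1 rest on the same mesentery chow libraries, at 14.0 and 4.1 CPM from 11 and 5 counts. Neo1 was at 40.6 and 87.7 CPM in mesentery on high fat diet and at 25.7 and 123 CPM in adipose on chow, so the runs differed. In venous-like cells 0 of 31 and over all endothelial cells 0 of 40 passed with the block, with 3 to 5 and 0 to 12 under an unadjusted p of 0.05. Of all genes, 4.51% to 9.1% and 2.29% to 12.07% were under that p in these comparisons. Without the block 0 of these genes passed in any comparison, with 0 to 4 under an unadjusted p of 0.05, where 0.3% to 3.86% of all genes were. The calls of these pathway genes were not repeated under the other settings.

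The genes whose levels were most like that of Bmp4 over the 32 sums of 4 classes in 8 libraries, among 8853 genes, were Rpl23a (Pearson r = 0.877 of log2(CPM + 1)), Crim1 (0.825), Rps25 (0.811), Rpl36a (0.795) and Ptgs1 (0.794). Crim1 encodes a membrane protein that binds BMPs. Among the members r with Bmp4 was highest for Bmpr2 (0.754) and lowest for Id1 (-0.365). For Inhbb the genes were Ubd (0.775), Aqp11 (0.754), Gm32688 (0.752), Gstm2 (0.729) and Tank (0.721), and r between Bmp4 and Inhbb was 0.204. The sums share libraries and depth, so these values describe the pattern only.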

How the data were processed

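Single-cell RNA counts of 8 libraries (4 groups, n = 2 pools of 6 mice each) were analysed. The values are whole-number UMI counts per gene and cell that the authors deposited as 10x matrices, made with 10x software 3.0.2 in run A and 5.0.0 in run B, per the file headers. The submitters' processing notes name mm10 and Seurat 4.3.0; the sources used here give no aligner settings beyond these. The gene lists held 31053 (run A) and 32285 (run B) entries, matched by identifier.

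Cells with at least 500 UMIs, 300 genes and at most 10% mitochondrial counts were kept, 23996 of 27944 barcodes, and 858 (3.58%) were removed as doublets by comparison with simulated ones. The share of barcodes over the mitochondrial limit was 22.8% to 30.8% in run A and 5.4% to 8.8% in run B. Clusters (26, Leiden resolution 1, leidenalg 0.10.2, scikit-learn 1.9.0, Python 3.11.15) were formed on 2000 variable genes and 30 principal components without the pathway's genes, and named from marker lists by leading genes. Cluster names were rebuilt here and can differ from the study's own. In arterial-like cells the markers of other cell types summed, over the 8 libraries, to 109.1 to 526 CPM (mural), 26.5 to 246.5 (fibroblast), 53 to 366.6 (lymphatic), 5.1 to 90.4 (macrophage), 0.6 to 37.1 (mesothelial), 2.7 to 34.1 (B cell), 0 to 2.7 (T cell), 0 to 29.6 (neutrophil) and 2.1 to 5.4 CPM (Schwann cell).

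Counts were summed per library and class (at least 20 cells) and tested with edgeR 4.0.16 (quasi-likelihood, TMM, filterByExpr, Benjamini-Hochberg over all genes tested, threshold 0.05; R 4.3.3), without a block. The experiment was done in 2 runs, and the run letter in the labels pairs the libraries: deviations of same-run libraries from their group means correlated at 0.25 to 0.71 in every class and pair of groups. The fit with the run as a replicate block is therefore printed wherever it changes a call. The edgeR step was tested on simulated data. Alternatives were no filter, RLE size factors, DESeq2 1.42.0, limma-voom 3.58.1, each library left out, doublets kept, a limit of 20% mitochondrial counts and resolution 2. With the 20% limit and with resolution 2, a cluster with arterial markers (494 and 418 cells, doublets included) got no class name. The same held for a cluster with capillary markers (3427 and 1565 cells). The arterial-like and capillary-like classes of these settings therefore did not hold the same cells as in the main setting. Intervals and limits for 0 (3 counts) are at 95% and cover counting error only.

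The members, lists and tests were chosen with earlier results of these data known. Named singly are the 10 members, with a fold change where the test passed with or without the block, and at most the 3 other pathway genes with the smallest p per comparison. Clusters 14, 15 and 17 and the fold changes given for members that did not pass were chosen after looking at their values.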

Additional observations from a re-analysis of the deposited data

Results flagged for a closer look

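The differences of Id1 between diets in venous-like cells had opposite signs in the 2 tissues. The log2 difference of high fat diet minus chow was 0.61 in run A and 0.35 in run B of mesentery, and -0.73 in run A and -0.03 in run B of adipose. Both mesentery pairs were above 0 and both adipose pairs below 0, but the pair of adipose run B hardly differed, and the difference between the tissues was not tested. The make-up of the class moved with the diet too: in run B cluster 6 made up 27.9% of the venous-like cells of chow mesentery against 76.2% under high fat diet, while for cluster 15 of adipose the shares were 44.8% and 14.2%. Within cluster 6, Id1 in run B went from 154 to 150.05 CPM in mesentery and from 106 to 164 CPM in adipose, chow first, signs opposite to those of the whole class. In run A of cluster 6 it was at 58.9 and 229 CPM in mesentery and 223 and 112 CPM in adipose, the signs of the class.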

How the results depend on the processing

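Without the replicate block no member was called in any of the 21 comparisons by edgeR, with every library or with any one left out. The exception among the other settings without the block was 1 member (Bmp2) for the tissue on chow over all endothelial cells with DESeq2. Counts leave out Bmp4 and Inhbb where they were chosen on the values compared, that is for the diet and the interaction in arterial-like cells, and Inhbb for the tissue on chow there. No filter, RLE size factors, limma-voom, kept doublets, the 20% mitochondrial limit and resolution 2 gave 0. The counts that follow all have the replicate block, which pairs the libraries by run, and each change's cause was not tested. They are given without the share of all genes called under the same setting. They therefore describe how far the calls hold and are no result about the members as a set.

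For the diet in mesentery in arterial-like cells, 1 member (Smad6) was called with the block, also with no filter, RLE and kept doublets, and 0 with DESeq2, limma-voom, the 20% mitochondrial limit, resolution 2 or in cluster 2 or 7 alone. Leaving out each library gave 0 to 1, with Smad7 in place of Smad6 without mesentery chow A. For the diet in adipose and for the interaction 0 were called under each of these settings. For the tissue on chow, 4 were called with the block or RLE, 5 with no filter (Smad7 added), 2 (Bmpr2, Smad6) with DESeq2 or limma-voom, 3 with kept doublets, and 0 with the 20% limit or resolution 2. In cluster 7 alone 1 (Smad6) was called and in cluster 2 alone 0, and leaving out each library gave 0 to 4, 0 without adipose chow B and 1 without mesentery chow B, mesentery high fat diet B or adipose chow A.

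In capillary-like cells the diet in mesentery had 0 to 1 (Inhbb) with each library left out, 1 without mesentery chow A or adipose chow A. The diet in adipose had 1 (Inhbb) with the block, no filter, RLE and kept doublets, 0 with DESeq2, limma-voom, the 20% limit or resolution 2, and 0 to 1 with each library left out. In venous-like cells no filter gave 1 (Inhbb) for the diet in mesentery, 1 (Inhbb) for the diet in adipose, 3 for the tissue on chow (Bmp4, Bmp6, Id2) and 1 (Bmp4) for the tissue on high fat diet, and cluster 6 alone gave 1 (Inhbb) for the diet in mesentery. Leaving out each library gave 0 to 1 for the diet in mesentery, 0 to 2 for the diet in adipose (2 without adipose high fat diet A), 0 to 3 for the tissue on chow (3 without mesentery chow B) and 0 to 3 for the tissue on high fat diet (3 without adipose high fat diet B). In lymphatic-like cells no filter gave 1 (Id2) for the tissue on high fat diet, and leaving out each library 0 to 1 (Bmpr2) for the diet in mesentery. Over all endothelial cells 1 (Bmp2) was called for the tissue on chow with no filter or DESeq2 and 0 to 1 with each library left out, and 0 to 2 for the diet in mesentery, 2 without mesentery chow A.

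3 values changed sign. The log2 difference of Bmp4 for the diet in mesentery in cluster 2 alone was 0.32 without and 0.17 with the block, and that of Inhbb for the diet in adipose in capillary-like cells was -0.73 with the block without adipose high fat diet B. The 4 settings with a single cluster were chosen after seeing the data. Mean levels by class moved by less than 1 SD between libraries under each setting, but with the 20% limit and with resolution 2 the arterial-like and lymphatic-like classes change places for Bmp4, the arterial-like and capillary-like for Bmp6, and the venous-like and capillary-like for Inhbb. Both settings also changed which cells the arterial-like and capillary-like classes held. The arterial-like and capillary-like change places for Id3 with the 20% limit. Depth limits run A most, where capillary-like cells of mesentery held 9 and 2 counts of Inhbb.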
